A study of Homo sapiens with 6 samples.

Results

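The genes described here sense DNA damage, signal it and repair it. They were chosen by name: 50 genes of damage signalling and of the main repair routes were listed, and each was read from the probe set annotated to it that was brightest over all arrays. Of these, 48 were measured, among 20172 genes named on the array, and all 48 lay above the filter on low values. BRCA2 and FANCD2 were not analysed here. ERCC5 was read from a probe set that is also annotated to the readthrough transcript BIVM-ERCC5, so its values belong to both, and each of the other 47 came from a probe set with a single gene symbol.

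RNA was taken 24 hours after transfection from A172, T98G and U87MG, established human glioblastoma cell lines, that had received either a miR-338-5p precursor, here called the mimic, or a negative control oligonucleotide. Each line gave 1 array per treatment, which made 3 mimic arrays and 3 control arrays of an Affymetrix Human Gene ST platform. All cells were thus transfected; the sequence of the control oligonucleotide is not given in the sources used here, and untransfected cells were not analysed here. The study was set up to find the targets of this microRNA.

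Cells meet breaks in both DNA strands with the MRN complex and the kinases ATM and ATR, which mark the chromatin around the lesion and halt the cell cycle through CHEK2 and CHEK1. The ends are then joined directly by the Ku and ligase IV machinery or repaired from the sister copy by homologous recombination. Damage confined to a single strand is handled by base excision or nucleotide excision, and in glioblastoma these routes bear on how cells survive radiation and alkylating drugs.

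The mature sequence of the transfected microRNA is shown because its seed, the stretch that pairs with target messenger RNAs, defines what the mimic can bind. In RefSeq on GRCh38.p14 it lies at chr17:81125923-81125944 on the minus strand. Capitals mark the seed, bases 2 to 8, whose complement in a target reads ATATTGT in DNA letters.
hsa-miR-338-5p: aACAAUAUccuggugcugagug

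Values are RMA log2 expression, so that a difference of 1 is a 2-fold difference, and changes are given as mimic minus control. Array medians over 33297 probe sets lay between 5.06 and 5.14. The mesenchymal glioma markers VIM and CD44 were high on every array, with lowest values of 11.9 and 11.5. CHI3L1 from the same list ran from 4.82 to 9.91 and was high in U87MG only. The glial marker GFAP reached at most 5.39, OLIG2 at most 4.96 and SOX2 at most 4.66, and S100B lay below the filter level of 4.30. SOX9 lay between 6.54 and 7.36, and NES between 5.2 and 7.3. Of the leukocyte markers 3 of 7 lay above that level on average, with PTPRC, CD3E, CD14 and LYZ below it. Among those above it, CD68 was high on every array, at 8.29 to 10.40. Above that level on average were also 4 of 5 epithelial and 2 of 5 endothelial markers. Of these, EPCAM and CDH5 lay near it, with highest values of 4.98 and 4.55. The epithelial list had means of 5.20 to 7.41 on mimic arrays and 5.35 to 7.31 on control arrays. KRT18 reached 12.05 in A172 and had 7.11 in U87MG with the mimic. KRT8 reached 10.49 and TEK 6.28, both in A172, and both were lower in T98G and U87MG. PPP2R5A, NDFIP1 and RHEB, which the study is known to have linked to this microRNA, were read with the test described below. That link may come from these same arrays, so their fall is not an independent check that the mimic acted. PPP2R5A fell by 1.57, NDFIP1 fell by 0.96 and RHEB fell by 0.93, with adjusted p of 0.00212, 0.0054 and 0.0116. In such bulk RNA, fewer cells of a kind and less RNA per cell cannot be told apart.

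The mimic arrays differed from the control arrays in 7 of the 48 repair genes. ERCC5, RAD54L2, C1D and RIF1 rose, and RNF138, DDIAS and RMI1 fell, each in the same direction in all 3 lines. They belong to different steps: excision of bulky lesions, chromatin remodelling, end joining, the choice of repair route at breaks, end resection, survival after damage and the resolution of recombination intermediates. The test was limma's moderated test with the cell line as a block, with Benjamini-Hochberg adjustment over 14248 features. Of all features 1.1% were called, 0.33% as higher and 0.772% as lower, against 14.6% of the measured repair genes. The genes were listed with such results known, so this contrast describes the list and does not test it. Without A172 the count of called repair genes was 3 (RNF138, DDIAS and ERCC5), without T98G it was 6 and without U87MG it was 0, with 12 of 48 at an unadjusted p under 0.05. Over all features the counts in the same order were 41, 138 and 2, against 157 with every line; dropping a line also removes arrays, and with them part of the 2 residual degrees of freedom. With 1 array per line and treatment, the variation between cultures of a line was not measured. The p-values rest on how far the response varied from line to line. That spread is pooled with a variance drawn from all features, at 4.46 prior against 2 residual degrees of freedom.

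**Figure D1:**
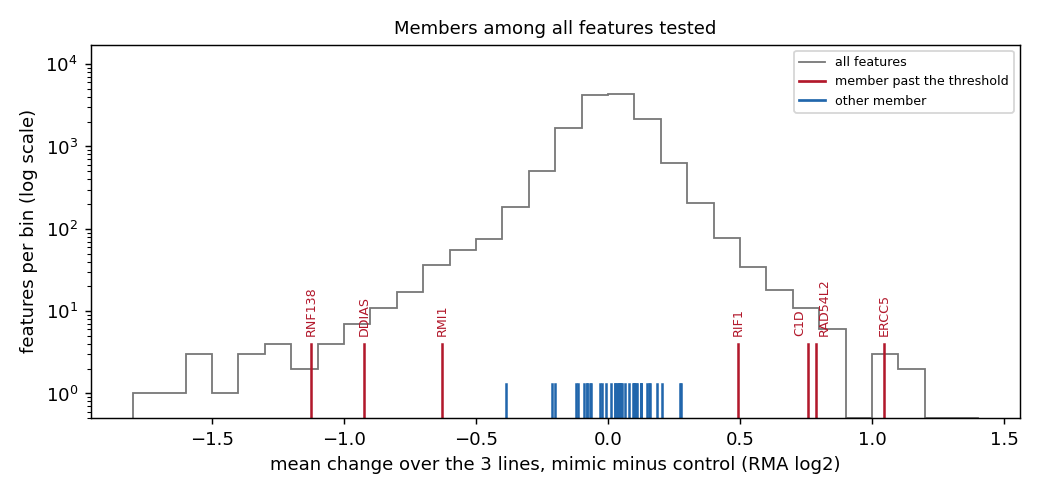
Mean change over the 3 lines, mimic minus control on the log2 scale, for all 14248 features (outline, features per bin on a log axis) and for the 48 repair genes (ticks at the bottom, red past the threshold and blue otherwise). The 7 genes past the threshold lie at -0.63 or below or at 0.49 or above, and the other 41 lie between -0.39 and 0.28.

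RNF138, a ubiquitin ligase that removes Ku from broken ends and so favours their resection, fell furthest. It had 6.48, 6.30 and 6.58 in A172, T98G and U87MG with the mimic, against 7.61, 7.30 and 7.82 with the control. The groups did not overlap, and every mimic array lay below every control array. The change was -1.12 ± 0.12 (SD, n = 3), which is 2.18-fold lower (adjusted p = 0.00524). It ranked 14 among all 14248 features from the lowest change upward. RefSeq lists 2 loci named as RNF138 pseudogenes, and how the probes divide between such copies was not analysed here.

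DDIAS, which suppresses apoptosis after DNA damage, had 6.97, 7.29 and 6.39 in A172, T98G and U87MG with the mimic, against 7.80, 8.24 and 7.38 with the control. It fell by 0.92 ± 0.08, or 1.90-fold (adjusted p = 0.00759), and its groups did not overlap. The spread of the change between the lines was small beside the spread of its level, which ran from 7.38 in U87MG to 8.24 in T98G on control arrays alone.

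RMI1 holds BLM and topoisomerase III together in the complex that dissolves double Holliday junctions. It had 7.53, 6.73 and 7.17 in A172, T98G and U87MG with the mimic, against 8.16, 7.31 and 7.85 with the control. Here the groups overlapped, because A172 with the mimic lay above T98G with the control, while within each line the mimic array was lower. RMI1 fell by 0.63 ± 0.05 (adjusted p = 0.0211). Its partner BLM, a RecQ helicase, differed by 0.13 and WRN, a related helicase, by 0.12, and neither passed (adjusted p = 0.57 for both).

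ERCC5 encodes XPG, the nuclease that cuts on the 3′ side of a bulky lesion in nucleotide excision repair. Its shared probe set had 8.05, 7.97 and 9.17 in A172, T98G and U87MG with the mimic, against 6.93, 7.16 and 7.96 with the control. U87MG was highest in both groups, and the lowest mimic array lay just above the highest control array. It rose by 1.04 ± 0.21, or 2.06-fold (adjusted p = 0.0119), and ranked 4 among all features from the highest change downward. The other nuclease of the pair that frames the lesion, ERCC4 with its partner ERCC1, differed by 0.04 and 0.03 and did not pass.

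RAD54L2 is a SNF2-family ATPase related in sequence to the recombination motor RAD54L, and is grouped with it here by name. It had 7.23, 7.0 and 7.52 in A172, T98G and U87MG with the mimic, against 6.34, 6.39 and 6.65 with the control, and the groups did not overlap. It rose by 0.79 ± 0.16 (adjusted p = 0.0186). RefSeq lists 1 locus named as a RAD54L2 pseudogene, and its part in the signal was not analysed here. RAD54L itself differed by 0.18 ± 0.03, higher in all 3 lines, and did not pass (adjusted p = 0.371).

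C1D, a cofactor of the nuclear RNA exosome that also binds and activates DNA-PK, had 8.03, 7.64 and 7.87 in A172, T98G and U87MG with the mimic, against 7.16, 7.09 and 7.01 with the control. It rose by 0.76 ± 0.19 (adjusted p = 0.0244), and the groups did not overlap. Another 3 probe sets are annotated to C1D, and they were examined after its values were seen. Their mean changes were 0.67, 0.50 and 0.52, positive in every line, with adjusted p of 0.0272, 0.044 and 0.0634 when each took the place of the brightest. RefSeq lists 5 loci named as C1D pseudogenes, so the source of each probe set's signal is uncertain.

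RIF1 acts with TP53BP1 at breaks to hold back resection and also times DNA replication. It had 8.79, 8.48 and 8.57 in A172, T98G and U87MG with the mimic, against 8.32, 7.97 and 8.07 with the control. Its change of 0.49 ± 0.02 (adjusted p = 0.0347) was the smallest of the 7 and had the narrowest spread, and the groups did not overlap. TP53BP1 differed by 0.09 and did not pass. Among all features 2.98% had groups that did not overlap, against 7 of the 48 repair genes, among them XRCC4, which was not past the threshold. With no filter on low values RIF1 and C1D did not pass, with adjusted p of 0.0757 and 0.0527.

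**Figure D2:**
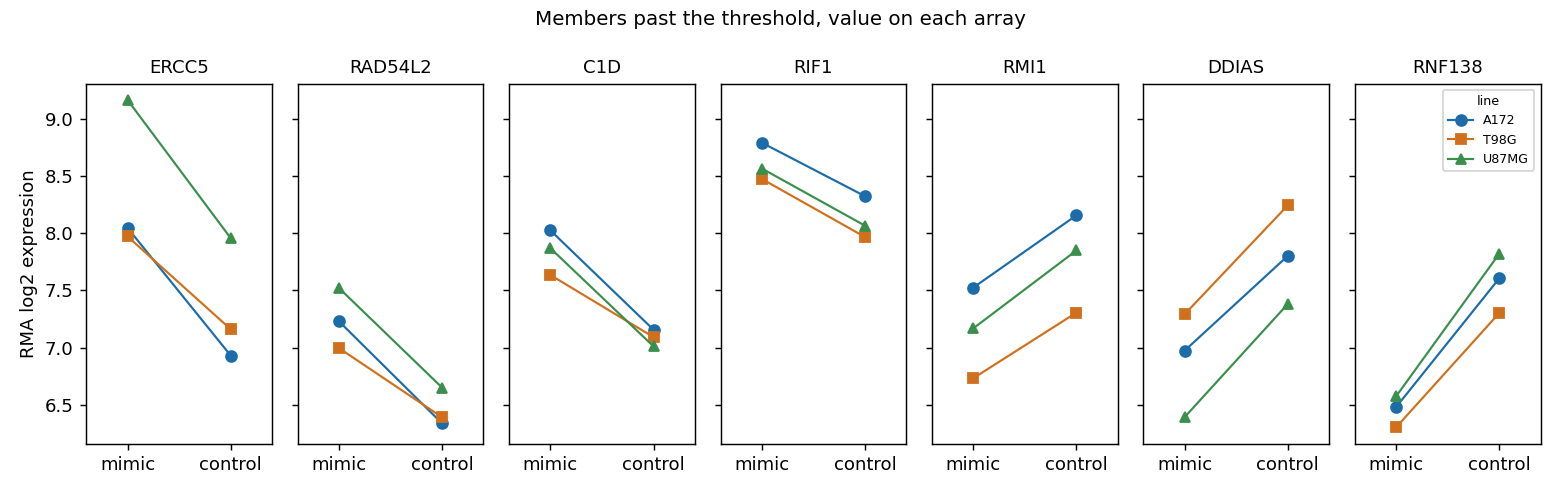
RMA log2 expression of the 7 repair genes past the threshold on each of the 6 arrays, mimic left and control right, with a line joining the arrays of each cell line. The lines slope the same way within each gene. T98G slopes least for ERCC5, RAD54L2, C1D, RNF138 and RMI1, and A172 for DDIAS and RIF1. RNF138 with the mimic sits between 6.30 and 6.58, below its control arrays at 7.30 to 7.82, and ERCC5 with the mimic sits between 7.97 and 9.17.

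None of the 6 checkpoint genes passed. CLSPN, which brings CHEK1 to the ATR kinase at stalled forks, had the smallest p of this route. It had 7.48, 8.62 and 8.72 in A172, T98G and U87MG with the mimic, against 7.22, 8.27 and 8.49 with the control. The mimic array was higher within each line, while A172 lay below the other lines in both groups. Its change of 0.28 ± 0.06 did not pass (adjusted p = 0.184), although it passed with a variance prior that follows expression. A second CLSPN probe set, also examined after the values were seen, had a change of 0.25. CHEK1, the effector kinase of ATR, differed by 0.13 and CHEK2, that of ATM, by -0.08. The apical kinases ATM and ATR differed by 0.03 and -0.06, and TOPBP1, the activator of ATR, by 0.10. For TOPBP1 the value came from T98G, at 0.29, with 0.02 in A172 and -0.02 in U87MG, and it was 0.0036 without T98G.

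None of the 3 MRN genes passed. MRE11, the nuclease of the complex, had 5.86, 6.97 and 5.66 in A172, T98G and U87MG with the mimic, against 5.97, 7.06 and 6.09 with the control. Its difference of -0.21 ± 0.19 came mostly from U87MG, at -0.43. RAD50, the ATPase of the complex, differed by 0.08, and NBN, which links it to ATM, by 0.05.

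Of the 6 genes that act on chromatin beside breaks, RIF1 alone passed. RNF168, which ubiquitinates histone H2A there, differed by 0.11 ± 0.12. MDC1, the adaptor that reads phosphorylated H2AX, had -0.28 in T98G against 0.16 and 0.15 in A172 and U87MG. RNF8, the ligase that acts before RNF168, likewise had -0.19 in T98G against 0.14 and 0.17, and neither difference between lines was tested, since each line has a single pair. H2AX, the histone variant, differed by -0.03.

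Of the 6 end joining genes C1D alone passed. LIG4, the ligase of this route, had 7.25, 6.52 and 7.80 in A172, T98G and U87MG with the mimic, against 7.42, 7.22 and 8.09 with the control. It was lower in all 3 lines, by 0.70 in T98G and by 0.18 and 0.29 in A172 and U87MG. The mean of -0.39 ± 0.28 did not pass (adjusted p = 0.239). XRCC4, the partner that stabilises LIG4, had 7.55, 7.63 and 7.62 with the mimic, against 7.13, 7.45 and 7.41 with the control. Its mimic arrays all lay above its control arrays, and its change of 0.27 ± 0.13 did not pass (adjusted p = 0.252). The Ku subunits XRCC5 and XRCC6 differed by 0.06 and -0.02, and PRKDC, the kinase that Ku recruits, by 0.05.

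Among 7 measured genes of homologous recombination, RAD54L2 rose and RNF138 fell. BRCA1, which promotes resection, differed by 0.15 ± 0.21, with 0.33 in T98G and -0.08 in U87MG. RAD52, an annealing protein, differed by 0.10 ± 0.18. XRCC2 and XRCC3, which act in strand exchange, differed by -0.01 and -0.07. Neither of the 2 measured Fanconi genes passed. FANCI, a target of the pathway's ubiquitin ligase, had 8.56, 9.01 and 8.99 in A172, T98G and U87MG with the mimic, against 8.44, 8.77 and 8.89 with the control. The mimic array was higher within each line, by 0.16 ± 0.08, and the groups overlapped. FANCC, a core subunit of the ligase, differed by 0.10 ± 0.17.

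Of the 6 nucleotide excision genes ERCC5 alone passed. ERCC1 had the widest spread between lines of all measured repair genes (SD 0.31), with -0.24 in A172, -0.05 in T98G and 0.37 in U87MG. ERCC2, a helicase of TFIIH, differed by -0.12 and had -0.35 in A172. DDB1, a subunit of the ligase complex that recognises ultraviolet damage, differed by -0.09, and XPA, which verifies the lesion, by -0.08.

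None of the 8 genes of base excision and single-strand break repair passed. XRCC1, the scaffold of this route, had 9.94, 9.56 and 10.05 in A172, T98G and U87MG with the mimic, against 9.75, 9.37 and 9.83 with the control. It was higher in each line by nearly the same amount, 0.20 ± 0.02, yet did not pass (adjusted p = 0.322). The uracil glycosylase UNG differed by 0.16 and OGG1, which removes oxidised guanine, by -0.12. POLB, which fills the gap, differed by -0.20 ± 0.18. PARP1, the break sensor, differed by 0.10, the ligases LIG1 and LIG3 by 0.03 and 0.04, and the abasic site nuclease APEX1 by 0.05.

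**Figure D3:**
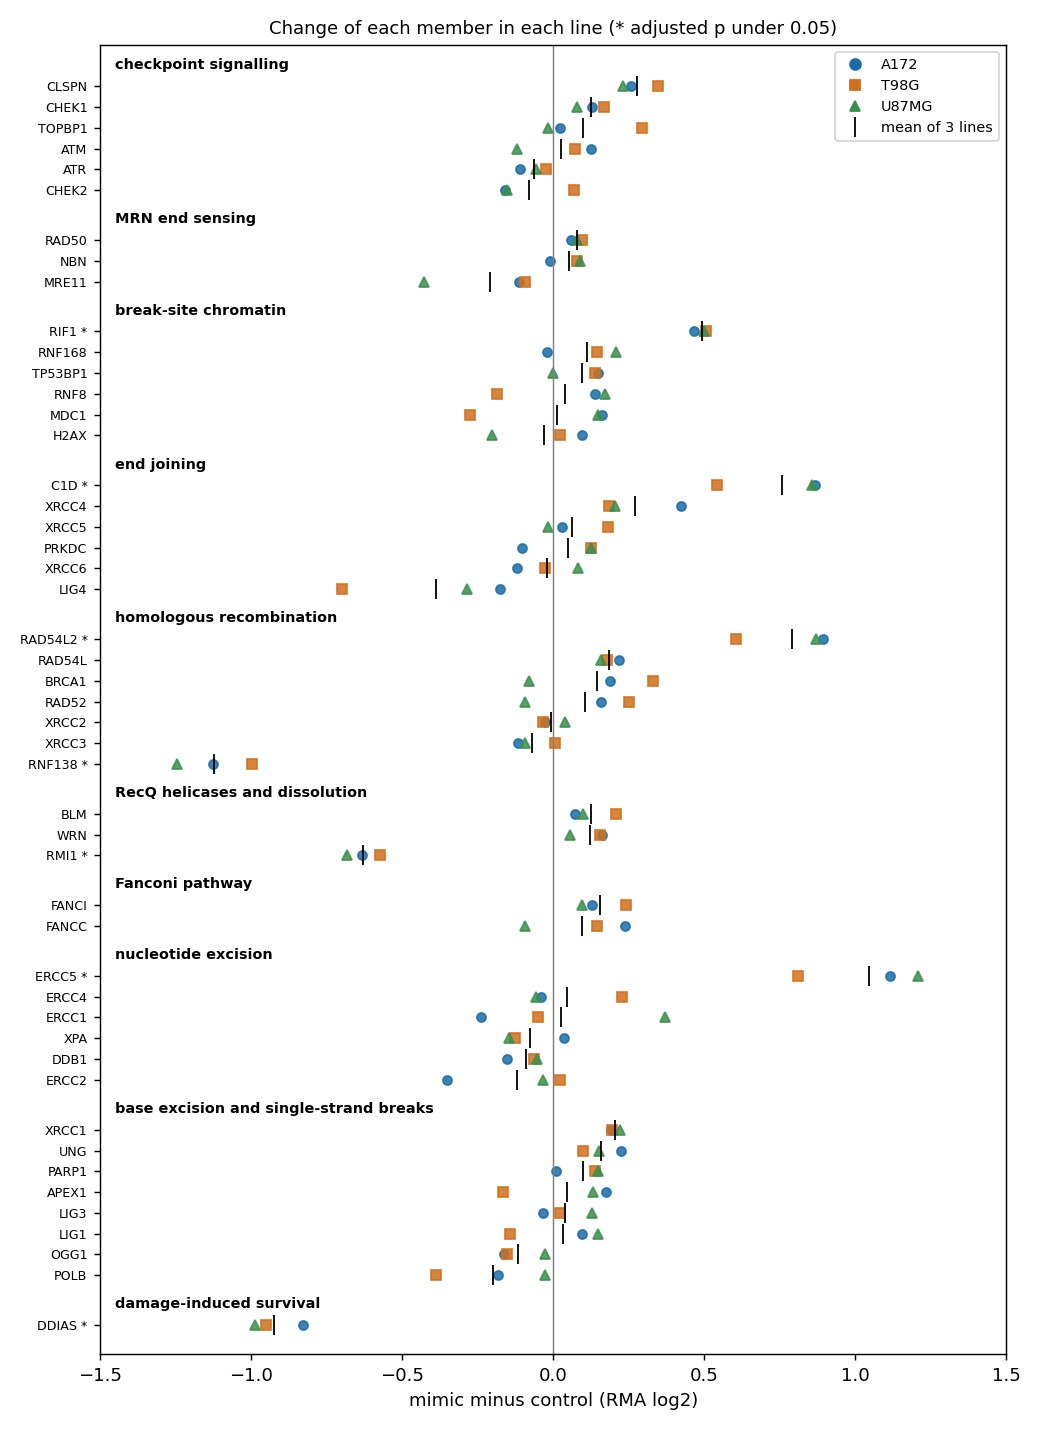
Change of each of the 48 measured repair genes in A172, T98G and U87MG (mimic minus control, log2), grouped by repair route, with a vertical tick at the mean of the 3 lines and an asterisk at genes past the threshold. The 7 marked genes have all 3 lines on the same side of 0 at 0.47 or more from it, and LIG4 in T98G, at -0.70, is the furthest value of any other gene.

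Read together, 32 of the 48 genes had a positive change, 66.7% against 52.4% of all features. Their median change was 0.048, against 0.0067 over all features. By line it was 0.047 in A172, 0.088 in T98G and 0.066 in U87MG, against 0.005, -0.0069 and 0.02 over all features. The 41 genes that did not pass had a median of 0.047, with 28 positive. Over 20 proliferation genes 0 passed, near the share of 1.1% of all features, 17 were positive and the median was 0.092. CCNB2 and CCNA2, the mitotic and S-phase cyclins with the smallest p, differed by 0.21 each. Whether the shift of the repair genes belongs to that of the proliferation genes was not tested.

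Other genes of the same routes did not pass in the same fit. In lists that cover further checkpoint, chromatin, end joining, recombination, Fanconi, nucleotide excision, base excision and translesion genes, 0 of 14, 12, 10, 22, 12, 17, 14 and 11 measured genes rose or fell. With 1.1% of all features called, few calls or none would be expected in lists of this size. The lack of a call therefore does not set these genes apart from other features. The medians ran from -0.02 over the end joining genes to 0.14 over the Fanconi genes, of which 11 of 12 were positive. The 2 genes of smallest p in each list other than the recombination list follow. ETAA1, a second activator of ATR, differed by 0.38, with 0.68 in A172, and the phosphatase CDC25A by 0.22. At breaks, the adaptor PAXIP1 differed by 0.31 and the acetyltransferase KAT5 by 0.21. In end joining, the nuclease DCLRE1C differed by 0.24 and TDP2, which frees trapped topoisomerase, by -0.30. USP1, which removes ubiquitin from the Fanconi proteins, differed by 0.24 and FANCF by 0.26. GTF2H5, a TFIIH subunit, differed by -0.27 and RAD23B, a partner of the lesion sensor XPC, by 0.16. The glycosylases TDG and SMUG1 differed by -0.43 and 0.32, and SMUG1 had 0.67 in A172 and a mean of 0.14 without that line. POLI, a translesion polymerase, differed by 0.24 and SMARCAL1, which remodels stalled forks, by 0.18. Their adjusted p lay between 0.142 for TDG and 0.49 for RAD23B.

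Of 17 measured p53 target genes, the usual output of damage signalling, 0 passed and 11 were positive (median 0.076). With 1.1% of all features called, a count of 0 in so short a list is near the background. SESN1, a stress-induced regulator of mTOR signalling, differed by 0.41 ± 0.15 (adjusted p = 0.104), and PHLDA3 by -0.20. Among interferon genes 0 of 11 passed, again near that background. Their median change was 1.27 in A172, whereas T98G had -0.05 and U87MG 0.04, with OASL at 0.33 and IFIH1 at 0.61. Each of the 7 called repair genes had the same sign in T98G and U87MG as in A172. The part of the interferon genes in their changes was not tested.

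The lines themselves differed in most of these genes. Limma's F test over the lines, with the treatment as an additive term so that the mimic and control arrays of a line serve as its replicates, called 38 of 48, against 67.8% of all features. That share of 79.2% is to be read against this background. The 10 genes not called were H2AX, RNF168, XRCC4, XRCC5, C1D, BRCA1, XRCC3, ERCC4, UNG and OGG1. A172 was the lowest line in 22 of the 48, or 45.8% against 32.0% of all features, and U87MG in 10, or 20.8% against 37.4%. No test of these shares was made.

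Pairwise contrasts of the lines were counted at an adjusted p under 0.05, and the remaining genes were not called. A172 was called lower than T98G in 19 of the 48 genes and higher in 9. Those shares of 39.6% and 18.8% stand against 25.7% and 25.1% of all features. A172 was called lower than U87MG in 19 and higher in 9, against 27.2% and 27.3%. Both comparisons use the same A172 arrays. T98G was called higher than U87MG in 12 and lower in 11, near the background of 23.6% in each direction. In the checkpoint route, A172 had the lowest mean for ATM, ATR, CLSPN, CHEK1 and CHEK2, and T98G for TOPBP1. For CHEK1, the pairwise contrast of A172 and U87MG was not called (adjusted p = 0.271).

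The 3 subunits of MRN were each set apart in a different way. RAD50 had 9.88 and 9.82 in A172 with the mimic and the control, 8.68 and 8.59 in T98G, and 9.64 and 9.56 in U87MG, so that T98G was low. MRE11 averaged 7.02 in T98G, 5.92 in A172 and 5.88 in U87MG, so that T98G was high, and A172 and U87MG differed by 0.04. NBN had 7.36 and 7.37 in A172 with the mimic and the control, 8.56 and 8.48 in T98G, and 8.56 and 8.47 in U87MG, so that A172 was low. The adjusted p of the F test was 7.7e-05 for RAD50, 0.00026 for MRE11 and 7.5e-05 for NBN. RefSeq lists 1 locus named as an MRE11 pseudogene.

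CLSPN had the widest range of line means, 7.35 in A172, 8.44 in T98G and 8.60 in U87MG. A172 was 1.09 below T98G and 1.25 below U87MG, while T98G and U87MG did not differ beyond their spread (adjusted p = 0.179). RAD54L, the motor of strand exchange, had 6.27 and 6.06 in A172 with the mimic and the control, 7.37 and 7.19 in T98G, and 6.91 and 6.75 in U87MG. T98G was highest and A172 lowest, and every pair of lines differed. POLB had 7.68 and 7.86 in A172 with the mimic and the control, 7.11 and 7.50 in T98G, and 6.68 and 6.71 in U87MG. Here A172 was highest and U87MG lowest, and again every pair differed. LIG4 was highest in U87MG at 7.94, with 7.34 in A172 and 6.87 in T98G, and ERCC5 likewise at 8.56 in U87MG, against 7.49 and 7.57 in A172 and T98G, which did not differ beyond their spread (adjusted p = 0.619). RMI1 was highest in A172 at 7.84, with 7.51 in U87MG and 7.02 in T98G, and DDIAS was highest in T98G at 7.77, with 7.39 in A172 and 6.89 in U87MG. The line means include each gene's change with the mimic. Without the treatment in the model the F test called 32 of the 48 genes in place of 38. The 6 lost were ERCC5, DDIAS, RMI1, RAD54L2, RIF1 and RNF138, with adjusted p of 0.159 for ERCC5, 0.246 for DDIAS and 0.111 for RMI1.

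**Figure D4:**
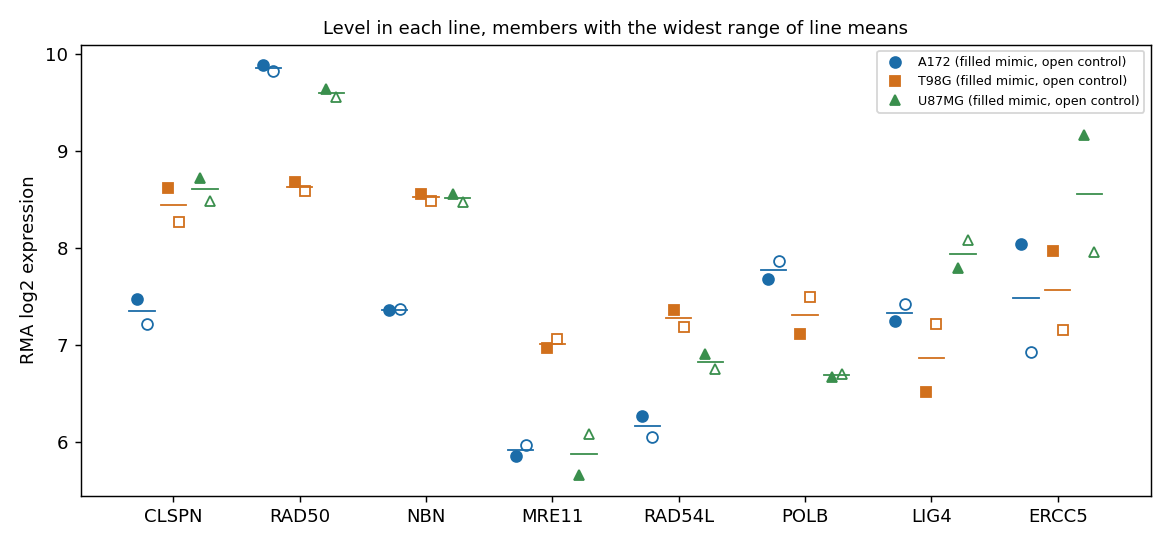
RMA log2 expression of the 8 repair genes with the widest range of line means among those past the F test, in A172, T98G and U87MG, with filled symbols for mimic arrays, open symbols for control arrays and a bar at each line's mean. A172 sits lowest for CLSPN, NBN and RAD54L, while T98G sits lowest for RAD50 and highest for MRE11.

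Promoter sequences were compared because several of these genes differ together between the lines. RefSeq windows of 300 bases, from 250 before to 50 after a gene's start on GRCh38.p14, were found for 42 of the 48 genes, 57 windows in all. They were searched on both strands for the E2F words TTTCCCGC, TTTCGCGC, TTTGCCGC and TTTGGCGC; E2F factors are known to drive genes of S phase. A word was found in 8 of these 57 windows, 14.0%, against 4.1% of 22199 windows of protein-coding genes. The repair genes were chosen by name and all lay above the filter, whereas the other windows were not limited to measured genes. The contrast therefore describes the list and does not test it. The genes were CLSPN, FANCC, LIG1, RMI1, TOPBP1, UNG, XRCC2 and XRCC6. A match describes letters only, and A172 was the lowest line for CLSPN, LIG1, XRCC2 and XRCC6 but the highest for FANCC, RMI1, TOPBP1 and UNG. The windows of CLSPN (chr1:35769929-35770228, minus strand) and of the matching start of RMI1 (chr9:83980555-83980854, plus strand) are shown. CLSPN has a match and the widest line range, and RMI1 has a match and a call in the mimic comparison. RMI1 was the only called gene for which a word was found, and the other matching genes were not called. No word was found for RAD50, NBN, MRE11, RAD54L, POLB, LIG4 and ERCC5, which follow CLSPN in line range. A link between the matches and either result was not tested. Capitals mark the word, here read from the opposite strand.
CLSPN: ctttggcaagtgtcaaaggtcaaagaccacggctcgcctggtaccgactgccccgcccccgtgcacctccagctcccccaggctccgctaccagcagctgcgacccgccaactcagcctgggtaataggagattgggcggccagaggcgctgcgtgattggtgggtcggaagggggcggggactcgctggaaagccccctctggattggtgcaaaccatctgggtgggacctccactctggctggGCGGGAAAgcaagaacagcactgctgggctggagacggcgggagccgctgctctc
RMI1: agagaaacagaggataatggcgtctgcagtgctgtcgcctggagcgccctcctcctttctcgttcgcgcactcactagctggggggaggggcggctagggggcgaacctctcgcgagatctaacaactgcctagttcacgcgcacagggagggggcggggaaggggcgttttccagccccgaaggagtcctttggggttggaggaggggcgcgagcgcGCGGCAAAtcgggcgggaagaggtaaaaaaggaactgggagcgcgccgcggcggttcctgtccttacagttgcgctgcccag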

How the data were processed

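The log2 values of 33297 probe sets on 6 arrays were deposited by the authors, who used RMA and the package oligo in R 3.0.1, per the submitters' processing notes. Any filter of theirs is not given in the sources. RMA's quantile normalization forces a common distribution, so a change of most genes in the same direction would be largely removed. Depth has no meaning for arrays, and their number, 3 per group, limits the precision. Genes were named from the platform annotation, with symbols updated through RefSeq gene identifiers (26098 of 26160 probe set and symbol pairs matched). Per gene the brightest probe set over the arrays was kept, a probe set shared by several genes counted once, and the lowest 25% of features left out (minimum mean 4.30), leaving 14248. Fits used R 4.3.3 with limma 3.58.1 (lmFit, then eBayes; two-sided tests, Benjamini-Hochberg adjusted p under 0.05, 2 residual and 4.46 prior degrees of freedom) and were tested on simulated data. The cell line, given in the labels, pairs the arrays: deviations from the group means correlated with r from 0.809 to 0.846 within a line. Values on every array are given for DDIAS, RMI1, RIF1, genes past the threshold, the gene of smallest p per route and, for the lines, 8 genes of widest range. Of the other repair, p53, proliferation and interferon lists, the 2 genes of smallest p are named, except in the recombination list, where they are not reported here. Cell type marker lists are given by counts and levels. Alternatives covered the filter, probe sets, variance prior, scaling, block and each line left out. The repair genes and lists were chosen with earlier results of these data known.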

Additional observations from a re-analysis of the deposited data

How the results depend on the processing

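Without the cell line in the model (no pairing, limma) 0 features passed, 0 repair genes among them, with 130 features and 5 repair genes at an unadjusted p under 0.05. The count over all features, 157, was 62 with no filter, 367 with the lower 50% left out, 462 where the variance prior followed expression, and 246 after centring arrays on their medians. Leaving out a line gave 2 to 138 features and 0 to 6 repair genes in the mimic comparison, and 22 to 28 repair genes in the line comparison, which counts fewer lines. The 7 called genes kept their sign under every alternative run, and ERCC5 gave no value with 1-symbol probe sets. Without any replicate block their adjusted p was 0.9999. Changes near 0 turned sign. MDC1 was at -0.0048 with arrays centred. Leaving out a line gave ATM -0.025 to 0.099, H2AX -0.091 to 0.058, MDC1 -0.064 to 0.16, RNF8 -0.025 to 0.15, XRCC6 -0.072 to 0.028, XRCC2 -0.030 to 0.0066, ERCC1 -0.14 to 0.16, ERCC4 -0.048 to 0.094, APEX1 -0.018 to 0.15, LIG1 -0.024 to 0.12 and LIG3 -0.0052 to 0.076. The cause of these differences was not tested. Detection calls over background were not among the values used. How far a dimmer probe set understates a change is therefore unknown, and CHEK2 had the lowest mean of the repair genes, at 5.75.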
